A study of Paralichthys olivaceus with 22 samples.

Results

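Kidney RNA of Japanese flounder (Paralichthys olivaceus) treated with 1 of 2 bacterial preparations was compared 12 h after treatment: E. tarda FKC on 4 arrays against S. iniae FKC on 4 arrays. The 8 arrays were taken by title from the 22 arrays of the study. The other arrays held E. tarda FKC at 6 h (n = 3), S. iniae FKC at 6 h (n = 3), PBS at 6 h (n = 4) and PBS at 12 h (n = 4), PBS being the control. The labels name Edwardsiella tarda and Streptococcus iniae as the organisms, do not expand FKC, and give no dose, route, strain or age for any of the groups. They also do not say whether each sample was a separate fish, so p-values cover only the spread among these samples, some or all of which may be technical. Each array held 1 Cy3-labelled sample on a custom Agilent design of 14481 probes, of which 11066 passed the background limit on 3 or more of the 22 arrays and were tested.

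Edwardsiella tarda is a Gram-negative and Streptococcus iniae a Gram-positive pathogen of farmed flounder. The outer membrane of Gram-negative bacteria carries lipopolysaccharide, while the wall of Gram-positive bacteria is a thick layer of peptidoglycan with lipoteichoic acid, and animals sense these with different receptors. In teleost fish the kidney is, beside its excretory part, the main blood-forming organ and holds many lymphocytes, granulocytes and macrophages.

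The transcripts can be given only as the files name them. Most probes carry a contig name (such as those starting with JFC or POC), 412 carry a GenBank entry as their systematic name, and 0 names matched the gene symbols, locus tags or accessions of the RefSeq table for this species. No gene name or role is therefore given to any probe below, and kidney markers, immune gene lists and probe sequences were not analysed here.

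All values are levels on the log2 scale: the log2 of the processed spot signal minus the array's 75th percentile, so that 0 is the 75th percentile of that array. Both 12 h groups lay on 1 slide, E. tarda FKC in its first row and S. iniae FKC in its second, so row and preparation cannot be told apart. The 75th percentile of signal was 209, 343, 313 and 436 on the 4 E. tarda arrays and 366 to 470 on the S. iniae arrays. Probes well above background numbered 8084, 9357, 8825 and 9162 on the E. tarda arrays. On the S. iniae arrays they numbered 8906, 8351, 8817 and 8392. Signal was lower on E. tarda replicates 1, 2 and 3, replicate 1 above all, than on any S. iniae array, while replicate 4 lay within the S. iniae range. The lower signal thus goes partly along with the preparation, and its part in every difference below was not tested. The 7 spike-in probes, whose RNA is added in fixed amounts, differed by -0.03 to 0.09 on the log2 scale between the groups, and their arrays overlapped for all 7. Pairs of arrays correlated over probes at 0.939 to 0.972 within E. tarda FKC, at 0.961 to 0.970 within S. iniae FKC and at 0.908 to 0.945 between the preparations, a description over probes that share their arrays.

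At 12 h the preparations differed at 2078 of the 11066 probes tested (18.8%; limma, Benjamini-Hochberg adjusted p under 0.05). E. tarda FKC gave the higher level at 1046 (9.45%) of these and the lower level at 1032 (9.33%). The median difference over all tested probes was -0.06 on the log2 scale. At 1681 of the called probes the 4 arrays of one preparation lay wholly apart from the 4 of the other, against 2284 (20.6%) among all tested probes, and at 397 they overlapped. In whole kidney, a difference in RNA per cell and a difference in the number of cells of a type cannot be told apart, which holds for every result here.

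Numbers of probes in the 2 directions were nearly equal, but the sizes were not. The median difference was 1.21 (2.32-fold) among the higher probes, with quartiles of 0.86 and 1.73, and -0.96 (1.95-fold) among the lower ones, with quartiles of -1.34 and -0.72. Among 7119 probes measured above background on all 8 arrays, 1452 (20.4%) were called, 751 higher and 701 lower. A difference of at least 2-fold was reached by 419 of these higher and 221 of these lower probes. At least 4-fold was reached by 108 and 16, and at least 8-fold by 38 and 1. Among probes above background on all 8 arrays, the largest differences therefore lay mostly on the side of E. tarda FKC. Probes that fell below background under either preparation are left out of these counts. How far this limits the lower side was not tested. Probes passing both the test and 2-fold numbered 1159 (10.5%), with 674 higher and 485 lower.

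Calls came more often from bright probes. Tested probes were split by mean level into 3 bins of equal size. In the brightest bin 22.8% were called, with 401 higher and 441 lower and a median standard error of 0.21. The middle bin gave 20.0% and the dimmest 13.5%, with a median standard error of 0.41 in the dimmest. Of the 3 bins only the dimmest had more higher than lower calls, 290 to 207, and the bins were not tested against each other. The median SD between arrays was 0.35 within E. tarda FKC, 0.32 within S. iniae FKC and 0.28 within PBS at 12 h. At 331 called probes one preparation was below the background limit on all its arrays, and at 48 of these both were.

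**Figure D1:**
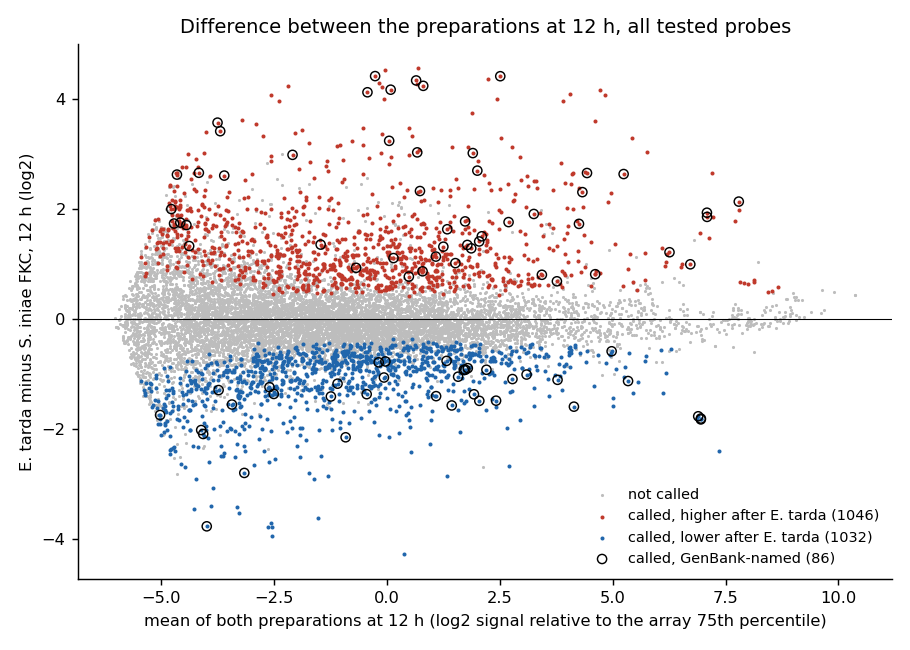
Each point is 1 of 11066 tested probes. The x axis is the mean log2 level of both preparations at 12 h and the y axis the log2 difference, E. tarda FKC minus S. iniae FKC. Red points (1046) were called higher after E. tarda FKC and blue points (1032) lower, and rings mark the 86 called probes with a GenBank name. The red points reach above 4 over a wide range of levels, and blue points below -3 are few.

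Set beside PBS at 12 h, the levels of both lists stood near the control after S. iniae FKC and away from it after E. tarda FKC. The median level of the 1046 higher probes was 0.10, 0.04, -0.03 and 0.02 on the E. tarda arrays. It was -1.35, -1.16, -1.24 and -1.37 on the S. iniae arrays and -1.48 to -1.43 on the PBS arrays. For the 1032 lower probes the medians were -1.58, -1.40, -1.45 and -1.40 after E. tarda FKC, -0.56, -0.45, -0.56 and -0.43 under S. iniae FKC, and -0.26 to -0.18 in PBS. S. iniae FKC lay between PBS and E. tarda FKC in both lists, closer to PBS.

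Probe by probe the same order held for the medians. Over the higher list the median difference from PBS was 1.35 under E. tarda FKC (quartiles 0.79 and 2.01) and 0.12 under S. iniae FKC (quartiles -0.23 and 0.52). Over the lower list it was -1.21 (quartiles -1.74 and -0.74) and -0.24 (quartiles -0.54 and 0.13). The medians over all tested probes were -0.12 and -0.09. Both comparisons share the PBS arrays with each other and the treated arrays with the call, so these are descriptions with no test, and PBS lay on another slide, where slide and treatment cannot be told apart.

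**Figure D2:**
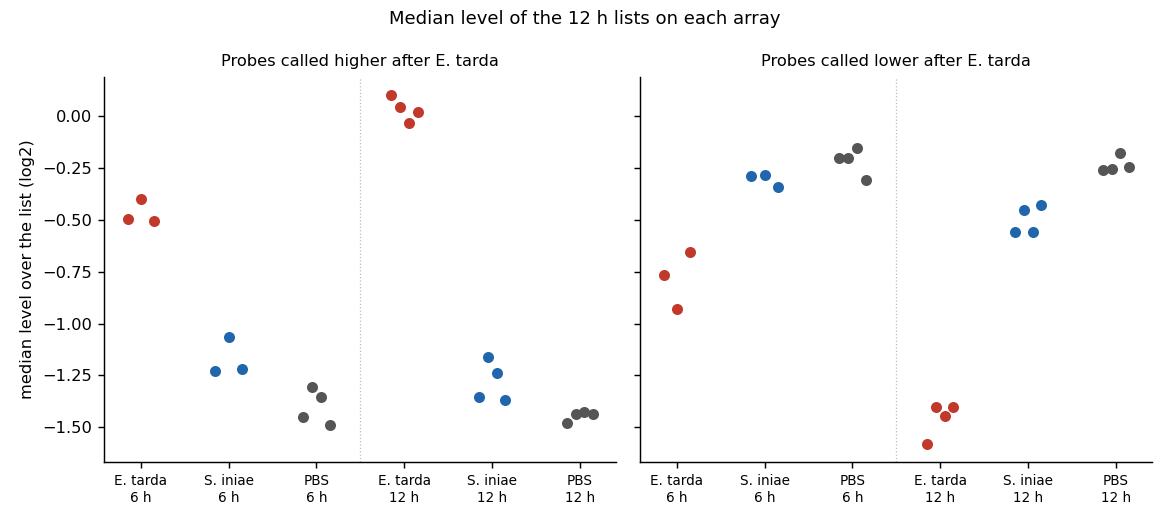
Each point is 1 of the 22 arrays, and the y axis is the median log2 level over the probes called higher (left, 1046) or lower (right, 1032) after E. tarda FKC at 12 h. E. tarda arrays at 12 h stand apart from all other arrays in both panels; the lists were chosen by the 12 h difference between the preparations. At 6 h, whose means did not enter that difference, E. tarda FKC stands on the same side of S. iniae FKC at a smaller distance.

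Among called probes above background on all 8 arrays whose groups did not overlap, the largest difference upward was that of CUST_11286_PI426483990 (JFC07148_1_code). Its levels were 3.03, 2.87, 2.92 and 3.1 after E. tarda FKC, -2.25, -0.87, -1.48 and -1.72 under S. iniae FKC, and -0.62, 0.52, 0.79 and 0.45 in PBS. All 3 groups were apart, with PBS in between. The preparations differed by 4.56 ± 0.38 (SE, n = 4 and 4), which is 23.6-fold, with a limma adjusted p of 2.15e-07. It was 3.50 with normexp background correction and quantile normalization. E. tarda FKC stood 2.69 above PBS (limma adjusted p = 1.79e-05) and S. iniae FKC -1.87 from it (limma adjusted p = 0.00343), so the preparations stood on opposite sides of the control. The difference at 6 h was 5.24, and its change to 12 h did not pass (-0.68, limma adjusted p = 0.582).

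CUST_6465_PI426483990 (JFC09949_1_code) followed, with levels of 2.57, 1.86, 2.22 and 2.24 after E. tarda FKC against -2.78, -1.17, -2.49 and -2.81 after S. iniae FKC. PBS gave -2.27, -2.48, -2.31 and -2.26, which lies within the span of the S. iniae arrays. The preparations differed by 4.54 ± 0.42 (SE), or 23.2-fold (limma adjusted p = 5.2e-07), while S. iniae FKC stood 0.02 from PBS. With normexp and quantile normalization the difference was 3.16. The 6 h levels were -1.62, -0.32 and 0.28 after E. tarda FKC against -1.43, -1.75 and -1.67 after S. iniae FKC. Those groups overlapped and the difference of 1.06 did not pass (limma adjusted p = 0.155). Its growth by 3.47 ± 0.64 (SE) to 12 h did (limma adjusted p = 0.00819).

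In the other direction, by the same limits, CUST_7579_PI426483990 (JFC21892_1_code) gave -2.51, -0.89, -2.74 and -0.91 after E. tarda FKC against 2.36, 2.73, 2.11 and 2.88 after S. iniae FKC. PBS was higher still, at 4.10, 5.0, 4.10 and 4.13. The preparations differed by -4.28 ± 0.38 (SE), or 19.5-fold (limma adjusted p = 3.89e-07), and both lay below PBS, by -6.10 and -1.81 (limma adjusted p = 7.95e-10 and 0.00448). Normexp and quantile normalization gave a difference of -3.18. The 6 h difference was -1.77 (limma adjusted p = 0.0112), and the change to 12 h of -2.51 passed (limma adjusted p = 0.0229).

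CUST_130_PI426483990 (JFC16616_1_code) was the next lowest within those limits. Its levels were -0.57, 1.01, -0.47 and -0.31 after E. tarda FKC, 3.07, 3.12, 1.89 and 3.02 under S. iniae FKC, and 1.56, 1.96, 2.65 and 1.70 in PBS. The treated groups did not overlap, although 1 array in each stood apart from its 3 companions. A difference of -2.86 ± 0.38 (SE), or 7.26-fold, passed (limma adjusted p = 2.8e-05). E. tarda FKC was -2.05 from PBS (limma adjusted p = 0.000308), and the 0.81 by which S. iniae FKC stood above PBS did not pass (limma adjusted p = 0.188). The 6 h difference of -0.51 did not pass either (limma adjusted p = 0.471), and the change from it of -2.35 did (limma adjusted p = 0.0286).

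Probes with a GenBank name are those whose systematic name is a database entry rather than a contig. Of the 412 on the array 320 were tested, and the others did not reach the background limit on enough arrays. Among the 320, 86 (26.9%) were called, against 18.8% of all tested probes. E. tarda FKC gave the higher level at 50 (15.6%) and the lower level at 36 (11.3%). They are brighter probes, with a median level of 0.51 against -1.40 over all tested, and their median absolute difference was 0.61 against 0.37. The share was not tested against the background, and brightness moves with it.

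Here too the upper side reached further. The differences of the 50 higher probes ran from 0.68 to 4.42 and those of the 36 lower ones from -3.77 to -0.59. The value of -3.77, at AB457039, rests on E. tarda arrays of which 0 were above background. The largest lower difference among probes above background on all 8 arrays was -2.15. Of the 86, 76 had groups of arrays that did not overlap and 65 were above background on all 8 arrays. Among all 2078 called probes these numbers were 1681 and 1452. Overlap is read on the same arrays as the call, so it is in part fixed by it, and the shares were not tested against each other. In those 65, at least 2-fold was reached by 31 higher and 19 lower probes, at least 4-fold by 14 and 1, and at least 8-fold by 8 and 0. At least 16-fold was reached by 5, all of them higher. Of the 5, AB435094 and AB435093, singled out after their values were seen, had nearly the same means. These were 2.93 and 2.82 under E. tarda FKC and -1.31 and -1.51 under S. iniae FKC. Whether such probes bind the same RNA was not tested, so the counts may hold repeats. One preparation alone was below background throughout at 10 of the higher and 3 of the lower probes. The differences given for these use signal below the background limit, so their size is not well measured. At 1 lower probe, HM147767, singled out after its values were seen, both preparations were below background on all arrays and the size is not measured.

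Against PBS, the 50 higher GenBank-named probes stood at a median of 2.34 under E. tarda FKC and 0.43 under S. iniae FKC. The upper quartile under S. iniae FKC was 1.87, so a part of this list was also above PBS under that preparation. The 36 lower ones stood at -1.36 and -0.25. As with the whole lists, E. tarda FKC was the preparation farther from the control in the medians.

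**Figure D3:**
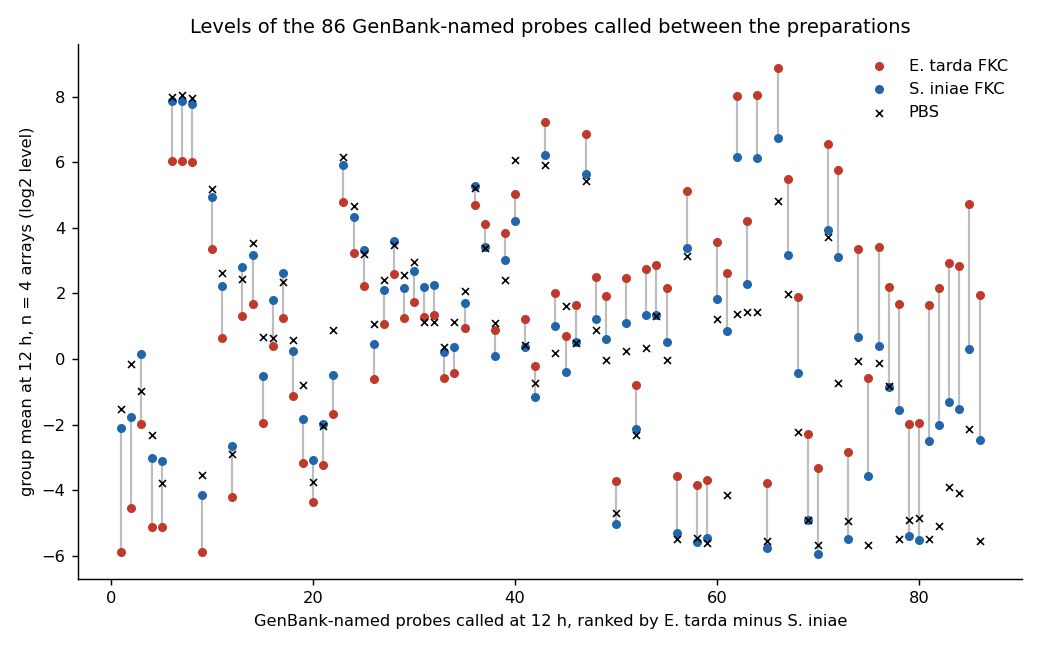
The 86 called GenBank-named probes are ranked along the x axis by the difference E. tarda FKC minus S. iniae FKC at 12 h. The y axis is the mean log2 level of each group (n = 4 arrays); red points are E. tarda FKC, blue points S. iniae FKC, crosses PBS, and grey lines join the preparations. Toward the right end the crosses fall below the blue points at several probes, where both preparations stood above PBS.

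The GenBank-named probe with the largest difference upward was CUST_377_PI426483993 (EU224372). Levels were 2.83, 1.61, 1.45 and 1.92 after E. tarda FKC against -2.70, -2.15, -1.85 and -3.14 after S. iniae FKC. Both groups were above background on every array and did not overlap, and PBS was not well above background on any of its 4 arrays. The difference was 4.42 ± 0.47 (SE), or 21.4-fold (limma adjusted p = 2.37e-06), and 3.16 with normexp and quantile normalization. Relative to PBS, E. tarda FKC was at least 44.1-fold and S. iniae FKC at least 2.06-fold higher. These bounds set the PBS arrays at their lowest signal well above background. Both comparisons with PBS passed (limma adjusted p = 8.3e-10 and 0.000372). The S. iniae arrays of 6 h were not well above background, and E. tarda FKC was at least 39.8-fold higher (limma adjusted p = 2.06e-07). The change of the difference to 12 h did not pass (limma adjusted p = 0.0804), and its size is not well measured.

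CUST_156_PI426483993 (EF530037) gave 5.0, 3.98, 4.93 and 4.98 after E. tarda FKC. After S. iniae FKC it spread widely, at -1.42, 0.68, 2.12 and -0.15, and PBS gave -2.32, -1.69, -2.43 and -2.10. Every E. tarda array was above every S. iniae array, and every S. iniae array above every PBS array. The preparations differed by 4.41 ± 0.53 (SE), or 21.3-fold (limma adjusted p = 9.25e-06), and E. tarda and S. iniae FKC stood 6.86 and 2.44 above PBS (limma adjusted p = 9.53e-09 and 0.00562). The 6 h difference was 5.55, and its change to 12 h did not pass (-1.14, limma adjusted p = 0.49). Without S. iniae FKC replicate 3, the array at 2.12, the 12 h difference was 5.02. Over the 22 arrays the levels of this probe and of EU224372 correlated at 0.967, a description over arrays of 6 groups and the highest value among the 10 probes named here.

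Among the lower GenBank-named probes above background on all 8 arrays, CUST_124_PI426483993 (EF451958) had the largest difference. It gave -2.11, -1.89, -1.89 and -2.03 after E. tarda FKC, 0.43, -0.03, 0.42 and -0.15 under S. iniae FKC, and -0.91, -0.49, -1.38 and -1.09 in PBS. PBS lay between the preparations with no overlap. The difference of -2.15 ± 0.30 (SE), or 4.44-fold (limma adjusted p = 5.01e-05), was made up of -1.01 from PBS for E. tarda FKC (limma adjusted p = 0.0129) and 1.14 for S. iniae FKC (limma adjusted p = 0.0196). With normexp and quantile normalization it was -1.31. At 6 h the difference of -0.90 did not pass (limma adjusted p = 0.0946), nor did its change to 12 h (-1.26, limma adjusted p = 0.138).

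CUST_21_PI426483993 (GU191337) was an abundant signal in every group. Its levels were 6.35, 6.03, 5.93 and 5.85 after E. tarda FKC, 7.58, 8.58, 7.71 and 7.59 under S. iniae FKC, and 7.75, 8.36, 7.95 and 7.92 in PBS. S. iniae FKC overlapped PBS and E. tarda FKC lay below both. The difference between the preparations was -1.83 ± 0.27 (SE), or 3.55-fold (limma adjusted p = 0.000108), and S. iniae FKC stood -0.13 from PBS (limma adjusted p = 0.832). Next to it in rank stood AB191201 and AB191200, singled out after their values were seen, with differences of -1.81 and -1.77. Group means of the 3 probes were 6.04, 6.05 and 6.01 under E. tarda FKC and 7.87, 7.86 and 7.78 under S. iniae FKC. Whether these probes bind the same RNA was not tested, since no probe sequence was used here.

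**Figure D4:**
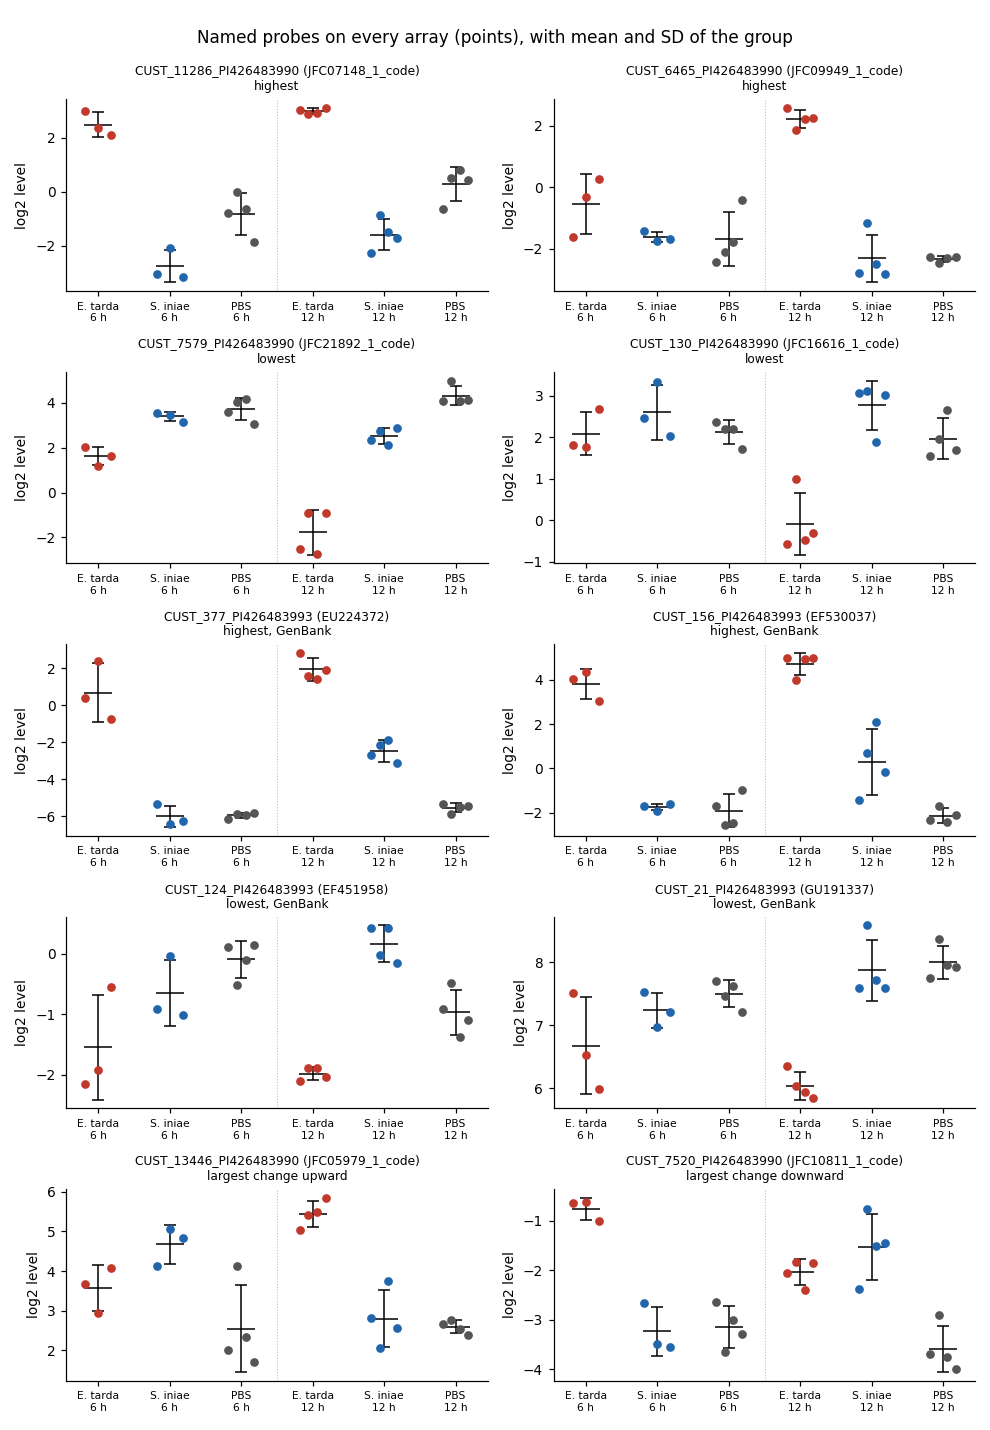
Each panel is 1 of the 10 probes named by rule; points are single arrays, and the bars give the mean and SD of the group, on the log2 level scale of each panel's y axis. Red is E. tarda FKC, blue S. iniae FKC and grey PBS, at 6 h (left of the dotted line) and 12 h. In the first 8 panels red and blue do not overlap at 12 h, as the rule required. In the 2 lowest panels, chosen for the largest change, the 6 h and 12 h differences do not match.

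The systematic names AF220549, AF220552 and AF220554 were each on 2 probes, 1 with a single spot and 1 with 10 spots, and none of these 6 probes was called. AF220549 gave -0.24 and -0.21, AF220554 gave -0.36 and -0.40, and AF220552 gave -0.08 and 0.19, which differ in sign, all with limma adjusted p of 0.144 or more. Of the 18 tested probes with 10 spots, 3 (16.7%) were called, 1 higher and 2 lower, which is near the 18.8% of all tested probes. Spots of such a probe had a median SD of 0.0675 within an array. Between arrays the median SD of these probes was 0.25 within E. tarda FKC and 0.27 within S. iniae FKC, which holds the spread between samples as well.

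Some probes were above background on all 4 arrays of one preparation and on none of the other. On the side of E. tarda FKC there were 52, and 39 of them were called. On the side of S. iniae FKC there were 21, all of them called. Over all tested probes 18.8% were called. Both sets were picked on the same arrays that the call compares, so their shares of calls are in part fixed by the choice. They are not separate evidence of a difference. GenBank names were on 4 of the 52 and 2 of the 21, beside 320 of the 11066 tested probes, and these shares were not tested against each other. Setting the dim group at its lowest signal well above background, the E. tarda FKC probes were a median of at least 1.78-fold and up to at least 9.32-fold higher. For the S. iniae FKC probes the values were at least 2.45-fold and 8.79-fold.

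The 2 sets stood differently in PBS at 12 h. The rule compares the 2 preparations and leaves PBS out. In the E. tarda FKC set of 52, 35 were above background on none of the 4 PBS arrays and 1 on all 4. In the S. iniae FKC set of 21, 15 were above background on all 4 PBS arrays and 0 on none. At 6 h the same detection pattern was met by 6 of the 52 and 1 of the 21. Probes well above background numbered 9583 to 10666 on the 6 h FKC arrays, against 8084 to 9357 on those of 12 h. The pattern needs a preparation with no array above background, so these counts do not compare the times on like terms. How many of all probes met it at 6 h was not counted. Leaving out 1 array removes a condition of the rule, so the counts of 52 and 21 can then only stay or rise. Without E. tarda FKC replicate 1, the array with the lowest signal, they were 121 and 24. Without S. iniae FKC replicate 3 they were 87 and 31.

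The 12 h difference is taken between means of the 12 h arrays, so the 6 h means do not enter it, although the 6 h arrays share in the estimate of the spread and in the background filter. At 6 h, with 3 arrays each, 1553 probes were called (14.0%), 857 (7.74%) higher and 696 (6.29%) lower after E. tarda FKC. Probes called higher at both times numbered 364, which is 34.8% of the 12 h list and 42.5% of the 6 h list. Probes called lower at both numbered 229, or 22.2% and 32.9%. In sign alone, 851 (81.4%) of the higher and 817 (79.2%) of the lower 12 h probes had the same sign at 6 h, against 65.0% of all tested probes. In either list 14 probes were called in the opposite direction at 6 h.

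The median 6 h difference was 0.56 over the higher 12 h list (quartiles 0.12 and 1.22) and -0.44 over the lower one (quartiles -0.83 and -0.09), against -0.00216 over all tested probes. Since the lists were chosen for their difference at 12 h, a smaller value at another time is in part fixed by the choice. Of the GenBank-named probes 51 (15.9%) were called at 6 h, near the 14.0% of all tested probes. Of their 50 higher 12 h probes 26 (52.0%) were called higher at 6 h too, against 34.8% in the whole list, and of the 36 lower ones 7 (19.4%) were called lower, against 22.2%. These shares were not tested against each other. Their 6 h medians were 1.08 and -0.57.

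The change of the preparation difference from 6 h to 12 h was tested directly and passed at 419 probes (3.79%), 211 upward and 208 downward. Each difference was taken within its slide, but each time had its own slide, so a change with time and one between slides cannot be told apart. Of the 419, 189 were called at 12 h and not at 6 h, 120 higher and 69 lower. Another 145 were called at 6 h and not at 12 h, 98 higher and 47 lower. At 41 the preparations differed in the same direction at both times, at 28 in opposite directions, and at 16 at neither time. Among the 2078 calls at 12 h, the change passed at 258 (12.4%), so for the other 1820 the data do not show that the 12 h difference was unlike that at 6 h.

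Those 258 split into 165 higher and 93 lower probes. Of the higher ones, 61 had the same sign at 6 h and a larger difference at 12 h, 15 a smaller one, and 89 the opposite sign at 6 h. For the lower ones the numbers were 28, 3 and 62. The count of 419 rests on single arrays: it was 148 without S. iniae FKC 6 h replicate 2, 197 without S. iniae FKC 6 h replicate 3, 224 without E. tarda FKC 6 h replicate 2 and 279 without S. iniae FKC 12 h replicate 4. The 6 h slide also had a stronger trend across its surface, removed by the scanner software, with a root mean square of 0.146 to 0.243 on its arrays against 0.0680 to 0.0866 on the 12 h slide, and its part in the change was not tested. Among GenBank-named probes the change passed at 14 of 320 (4.38%), near the 3.79% of all tested probes. Of the 14, 13 were also called at 12 h, against 258 of the 419 over all tested probes. The change contains the 12 h difference, so the 2 calls are not independent, and the shares were not tested against each other.

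**Figure D5:**
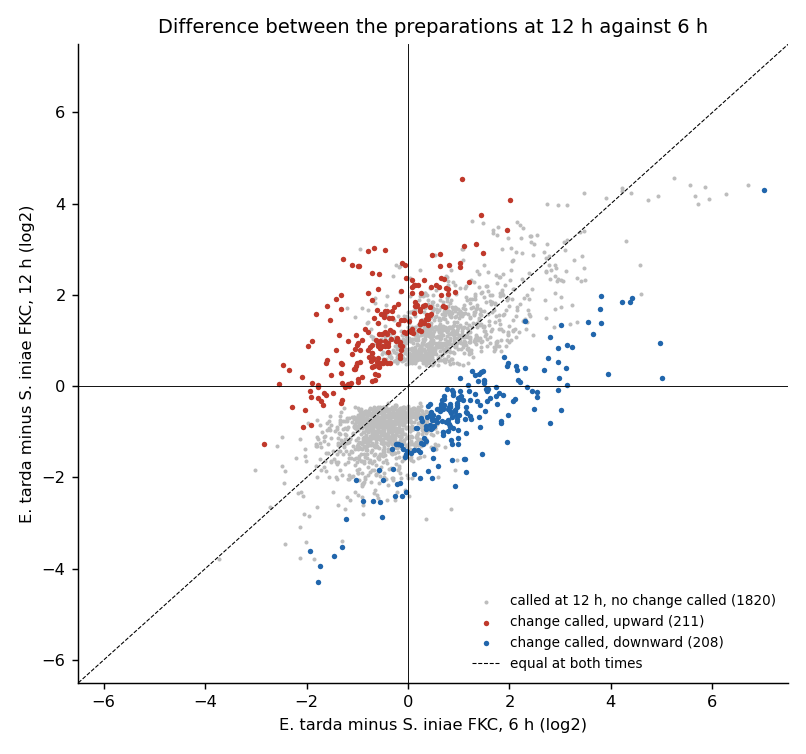
Each point is a probe called at 12 h or called for the change between times. The x axis is the log2 difference, E. tarda FKC minus S. iniae FKC, at 6 h (n = 3 and 3) and the y axis that at 12 h (n = 4 and 4). Grey points are the 1820 probes called at 12 h with no change called, red points the 211 changes upward and blue points the 208 downward; the dashed line marks equal differences.

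The largest change upward among probes above background on every FKC array was that of CUST_13446_PI426483990 (JFC05979_1_code). At 6 h it gave 3.68, 2.95 and 4.08 after E. tarda FKC against 4.12, 5.07 and 4.83 after S. iniae FKC, with S. iniae FKC the higher. At 12 h it gave 5.04, 5.42, 5.48 and 5.85 after E. tarda FKC against 2.81, 2.06, 3.75 and 2.57 after S. iniae FKC. The means stood in opposite order at the 2 times, but the 6 h difference did not pass, so a reversal is not shown. The arrays did not overlap at either time, although at 6 h the nearest were 4.08 and 4.12. The differences were -1.10 (limma adjusted p = 0.15) and 2.65 (limma adjusted p = 0.000228), and the change of 3.75 ± 0.66 (SE) had a limma adjusted p of 0.00605. PBS averaged 2.54 ± 1.09 at 6 h and 2.59 ± 0.17 at 12 h (SD, n = 4 each).

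The largest change downward was that of CUST_7520_PI426483990 (JFC10811_1_code). At 6 h the levels were -0.64, -0.64 and -1.01 after E. tarda FKC against -2.66, -3.50 and -3.55 after S. iniae FKC, with no overlap. At 12 h they were -2.05, -1.84, -2.40 and -1.85 against -2.38, -0.77, -1.52 and -1.44, which overlapped. The 6 h difference of 2.48 passed (limma adjusted p = 0.00014) and the 12 h difference of -0.50 did not (limma adjusted p = 0.286). The change was -2.98 ± 0.47 (SE), with a limma adjusted p of 0.00327, and -1.64 with normexp and quantile normalization. PBS was well above background on only 1 of its 4 arrays at 12 h.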

How the data were processed

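The authors' deposited scanner files give spot intensity values, background-subtracted and detrended within each array by Agilent Feature Extraction 10.7.3.1, per the file headers (the submitters' processing notes name 9.5.3.1). A deposited table of log2 values by the authors matched the signal scaled to each array's 75th percentile, less the probe's PBS median of the same time (100.0% within 0.1); it was an alternative. Its column medians ran from -0.274 to 0.0274, and its scale, centring and direction were inferred from that match.

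Control spots (536) and non-uniform or population outlier spots were dropped, so that 94 values of tested probes were missing; no spot was saturated. The spots of a probe were averaged. A model with 1 mean for each of 6 groups was fitted to all 22 arrays (lmFit and eBayes, limma 3.58.1, R 4.3.3; 16 residual degrees of freedom), and checked on simulated data. The number of arrays limits the precision. Groups follow the sample titles. Named probes were the 2 highest and 2 lowest differences at 12 h with non-overlapping groups and all 8 arrays above background, the same among GenBank names, and the largest change each way. The comparison, lists and rules were chosen with earlier results of these data known. Replicate numbers were not taken as pairs of samples. Alternatives covered scaling, background correction, filters, arrays fitted, spot flags, variance model and arrays left out.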

Additional observations from a re-analysis of the deposited data

Results flagged for a closer look

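Dixon's 95% limit was applied to the 12 h groups of 4 arrays of the 10 named probes. In 5 of 30 groups checked, 1 array stood apart from its companions. Chance alone gives about 1 in 20. The groups share their arrays and are not independent, so the 5 cannot be weighed against that rate. None of the 12 further checks, of signal and quality measures and list medians in the 2 preparations, had an array apart by that limit. The level of CUST_7579_PI426483990 was 5.0 on PBS replicate 2 at 12 h. CUST_130_PI426483990 had E. tarda FKC replicate 2 at 1.01 and S. iniae FKC replicate 3 at 1.89. CUST_156_PI426483993 had E. tarda FKC replicate 2 at 3.98, and CUST_21_PI426483993 had S. iniae FKC replicate 2 at 8.58. Both E. tarda FKC values thus came from the same array. None of the 4 values on treated arrays reached the range of the other preparation, which the rule that named these probes had required.

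The preparation difference changed between 6 h and 12 h at 419 probes in the direct test of the change (limma, adjusted p under 0.05). Of the named probes, CUST_6465_PI426483990 changed by 3.47, CUST_7579_PI426483990 by -2.51, CUST_130_PI426483990 by -2.35, CUST_13446_PI426483990 by 3.75 and CUST_7520_PI426483990 by -2.98 on the log2 scale.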

How the results depend on the processing

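The count of 2078 calls was 1159 (674 higher, 485 lower) with at least 2-fold required, 1349 (780 and 569) when the 8 arrays were fitted alone and 821 (512 and 309) with the replicate number as a block in those arrays; 60.7% and 37.0% of the calls were made again in the last 2 fits. Same-numbered arrays correlated in their deviations at -0.03, -0.03, 0.01 and 0.28, and arrays of unlike number at -0.30 to 0.20. These few values cannot settle whether samples were paired. Each replicate number was also a column of the slide, so the block covers the column as well. Leaving out 1 array gave 1644 to 1820 calls, and 1207 of the 2078 (680 higher, 527 lower, 70 GenBank-named) were made in all 8 such fits. The 2-fold limit drops smaller differences by construction, the other fits used fewer arrays, and the cause of the further drop with the block was not tested. The other alternatives gave 1558 to 2673 calls, with normexp and quantile normalization the highest. Under the scalings 45.8% to 50.3% of calls were higher, and the median of all tested probes lay between -0.08 and -0.04. The GenBank-named count ranged from 63 to 104. The count of 419 changes was 199 (102 upward, 97 downward) with the compared groups alone, 36 (13 and 23) with the replicate block, and 148 to 597 with 1 array left out. The 73 probes above background in 1 preparation only became 86 to 145 with 1 array left out, where the looser rule can only keep or raise the count. All 210 alternatives computed for the 10 named probes kept direction and call, though not size: normexp and quantile normalization brought 6 of them nearer to 0 by over 1.5-fold, as given with each probe. With the replicate block the changes of CUST_13446_PI426483990 and CUST_7520_PI426483990 passed only narrowly (limma adjusted p = 0.0495 for each). A slide block was not possible, because the 12 h groups share 1 slide. Among dim probes the standard error, with a median of 0.41 in the dimmest of 3 bins, limits what could be called. Whether their true differences were also smaller was not tested.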

Other observations

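One probe with 10 spots, POC02478_1, chosen here after its values were seen, varied widely between arrays of a group. Its levels were -4.64, 1.29, -0.86 and 2.21 after E. tarda FKC against -4.07, -5.43, -3.29 and 0.99 after S. iniae FKC, with SDs of 3.05 and 2.77. It was well above background on only 3 of the E. tarda and 2 of the S. iniae arrays, so part of this spread rests on signal below the limit. The groups overlapped and the difference of 2.45 ± 1.56 (SE) did not pass (limma adjusted p = 0.304). Its 10 spots had an SD of 0.0403 to 0.995 within an array, below the SD between arrays. PBS arrays of both times ranged from -4.42 to 2.80, and the FKC arrays of 6 h from -3.01 to -0.65. Of the 11066 tested probes, 40 had an SD over 2 in both preparations at 12 h. In the limma fit 0 of the 40 were called, against 18.8% of all tested probes. A wide spread in the compared groups raises the standard error, so this 0 is largely fixed by the choice. Of the 40, 22 also had an SD over 2 in PBS at 12 h, and the share over all tested probes was not computed.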
